A study of Mus musculus with 13 samples.

Results

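The genes described here make the long fatty chains and the neutral lipids of sebum, the oily secretion of the sebaceous gland: the fatty acid elongases Elovl1, Elovl3, Elovl4, Elovl5, Elovl6 and Elovl7, the wax ester synthases Awat1 and Awat2, the sterol ester synthase Soat1 and the triglyceride synthase Dgat2. They were chosen by name for these roles, with earlier results of these data known. Each gene was read from its probe with a single annotated symbol, the one of highest mean where there were several. Of the 10 genes, 9 had such a probe, 1 each, and all 9 were bright enough to be tested among 16322 genes. Soat1 had no probe with that single symbol in the annotation used and was not analysed here. The tissue was the whole skin of the back of C57Bl6 males, aged 30 postnatal days, whose hair follicles were in anagen, when hair grows, and every group shares this strain, age, sex and phase. The mice had free access to standard chow, and lights were on for 12 h and off for 12 h. Samples were spaced 4 h apart, the earliest at ZT2 and the last at ZT50 (ZT is the time since lights first came on, in hours). RNA of 3 mice was pooled in equal amounts for each time, which gave 13 pools, 7 taken in the light and 6 in the dark, each on 1 array. A pool averages its 3 mice, so the p-values below measure the spread between pools, and the number of arrays limits the precision.

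An elongase adds carbons to a fatty acid bound to coenzyme A. It carries out the condensing step of a cycle in the endoplasmic reticulum, and a reductase, a dehydratase and an enoyl reductase finish each round. The members differ in the chains they prefer: Elovl6 extends palmitate to stearate, Elovl5 polyunsaturated chains, Elovl1, Elovl3 and Elovl7 saturated and monounsaturated chains to very long ones, and Elovl4 the ultra long chains of skin ceramides. In sebocytes the chains are then esterified, to fatty alcohols by Awat1 and Awat2, to cholesterol by Soat1 and to diacylglycerol by Dgat2, and the lipid is released when the cell bursts. Dgat2 and several elongases also work in fat cells and in epidermis, which whole skin contains. In whole skin, fewer cells of a type and less RNA per cell cannot be told apart.

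The stretches just before the start sites of Awat1, Awat2, Elovl4 and Elovl7 are shown because 5 of the 6 pairs among these genes passed both correlation tests described below, while the stretches differ in base content. Other pairs passed by Pearson's r alone, among them Elovl5 or Elovl6 with some of these genes. Each is the 250 bases before a start site, taken from RefSeq's promoter table for GRCm38.p6, written 5′ to 3′ on the gene's own strand, with every CG pair in capitals. The windows are chrX:100571997-100572246 on the + strand for Awat1, chrX:100442718-100442967 and chrX:100412588-100412837 on the - strand for 2 start sites of Awat2, chr9:83806306-83806555 on the - strand for Elovl4 and chr13:108214154-108214403 on the + strand for Elovl7.
Awat1: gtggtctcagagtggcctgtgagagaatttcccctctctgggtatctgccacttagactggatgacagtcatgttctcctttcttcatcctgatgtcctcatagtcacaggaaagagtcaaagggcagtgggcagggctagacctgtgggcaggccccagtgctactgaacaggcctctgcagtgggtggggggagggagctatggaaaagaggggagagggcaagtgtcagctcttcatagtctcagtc
Awat2, first window: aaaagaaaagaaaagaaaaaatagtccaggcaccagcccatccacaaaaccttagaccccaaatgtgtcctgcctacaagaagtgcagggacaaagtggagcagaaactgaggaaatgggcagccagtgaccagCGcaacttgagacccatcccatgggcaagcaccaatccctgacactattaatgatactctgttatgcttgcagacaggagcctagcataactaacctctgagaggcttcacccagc
Awat2, second window: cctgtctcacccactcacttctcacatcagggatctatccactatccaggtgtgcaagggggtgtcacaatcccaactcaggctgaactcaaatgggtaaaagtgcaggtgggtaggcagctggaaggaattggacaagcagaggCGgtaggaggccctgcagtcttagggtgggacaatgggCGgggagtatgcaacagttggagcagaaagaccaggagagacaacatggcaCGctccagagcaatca
Elovl4: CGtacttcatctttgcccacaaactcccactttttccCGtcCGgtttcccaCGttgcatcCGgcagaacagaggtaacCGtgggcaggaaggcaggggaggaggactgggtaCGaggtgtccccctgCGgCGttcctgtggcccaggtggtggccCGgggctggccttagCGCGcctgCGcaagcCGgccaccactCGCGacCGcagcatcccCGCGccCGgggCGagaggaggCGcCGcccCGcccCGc
Elovl7: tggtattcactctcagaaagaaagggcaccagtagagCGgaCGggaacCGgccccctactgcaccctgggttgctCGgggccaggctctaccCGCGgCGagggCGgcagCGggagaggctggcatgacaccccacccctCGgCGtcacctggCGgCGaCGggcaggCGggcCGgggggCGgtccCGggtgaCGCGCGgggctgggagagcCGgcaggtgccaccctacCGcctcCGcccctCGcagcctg
The Awat1 window holds 0 CG pairs, as do 7.87% of the 32851 windows of this length in the table. Those of Awat2 hold 1 and 3. Elovl4 and Elovl7 hold 25 each, and 10.7% of all windows hold at least that many, where the median is 6. Genes with a CG-rich start are often active in many cell types and those with few CG pairs in fewer, as general background. The table held 10 windows for 8 of the 10 genes, the others being Elovl1 with 18 and 5 CG pairs, Elovl5 with 14, Soat1 with 12 and Elovl6 with 11.

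Motifs linked to the clock or to lipid control were searched on both strands of these 10 windows. CACGTG, the E-box bound by the clock's activators, was found in 1 window, that of Elovl5, 161 bases before the start site, and in 6.02% of all windows. TTANGTAA, a D-box, was in 0 of the 10 and in 2.06% of all, and TCACNCCAC, a sterol element, in 0 and 1.05%. AGGTCA, a site core of nuclear receptors, was in 2 windows, those of Elovl6 and of Elovl1, and in 14.0% of all. CCAAT was in 5 windows and in 33.8% of all, and TATAAA in 0 and 12.4%. The CCAAT matches lay in both Awat2 windows and in those of Elovl1, Elovl5 and Soat1.

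The arrays were alike, any pair of pools correlating at 0.978 to 0.996 in log2 intensity over the genes tested. The clock served as a reference: Nr1d1, a repressor in the clock, followed a 24 h wave with a peak-to-trough fold of 5.66 (limma, adjusted p = 2.26e-04), and 7 of 13 tested genes of a core clock list were called. The pools also differed in tissue. The mean of 16 skeletal muscle genes ranged from -0.63 (log2, centred) in ZT2 to 0.47 in ZT30, and that of 15 hepatocyte genes reached 2.17 in ZT46, where albumin (Alb) was at 10035 against at most 4435 elsewhere.

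None of the 9 genes was called for a 24 h wave, for drift over the 48 h or for light against dark at an adjusted p under 0.05 (limma, Benjamini-Hochberg over 16322 genes). The calls over all genes were 23 for the wave (0.141%), 0 for drift (0%) and 1 for light against dark (0.00613%). At an unadjusted p under 0.05 the members numbered 4 for the wave, beside 9.54% of all genes, 3 for drift, beside 8.80%, and 6 for light against dark, beside 12.4%. The 3 for drift all had slopes below 0 (5.59% of all genes, and 3.22% above 0), and the 6 were all higher in the dark (7.56%, and 4.87% lower). The members vary together and share the pools, so these counts are not separate observations. Intensities of different probes are not compared with each other here.

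**Figure D1:**
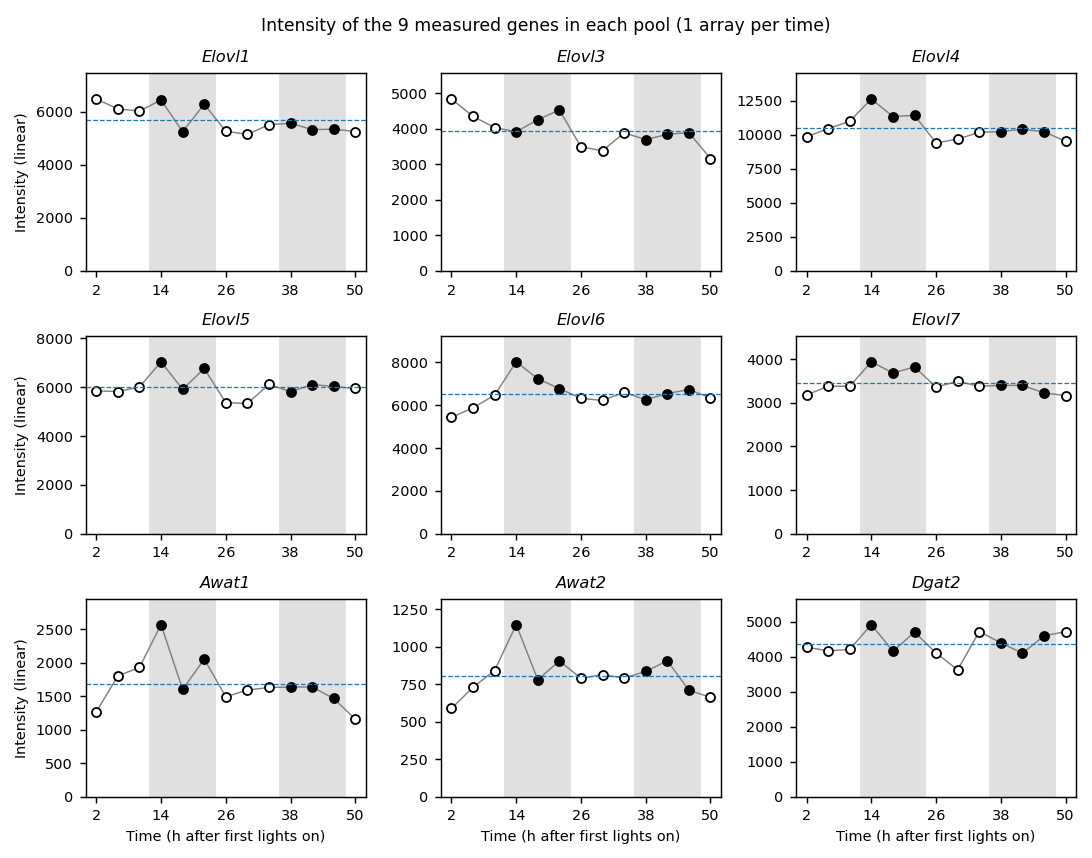
Deposited intensity (linear, y axis from 0) of the 9 measured genes in each of the 13 pools against time in hours; open circles are pools taken in the light, filled circles pools taken in the dark (grey bands), and the dashed line is the mean of the 13 pools. ZT14 is the highest pool in 7 of the 9 panels, and Elovl1 and Elovl3 are highest at ZT2.

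The wax ester synthases had the widest swings of the 9 genes. Awat1, which joins fatty acyl chains to long fatty alcohols, stood at 1265 in ZT2, 1805 in ZT6, 1931 in ZT10, 2572 in ZT14, 1603 in ZT18 and 2055 in ZT22 on the first day. On the second day it was at 1493 in ZT26, 1592 in ZT30, 1632 in ZT34, 1638 in ZT38, 1638 in ZT42 and 1467 in ZT46, and at 1157 in ZT50. The high pool was thus ZT14 and the low ones ZT50 and ZT2, and the second day was nearly flat. Light and dark pools overlapped. The highest pool was 2.22 times the lowest, the mean was 1554 ± 276 (SD, n = 7) in the light and 1829 ± 414 (SD, n = 6) in the dark, and the dark pools were 0.30 ± 0.12 (log2, SE) higher with linear time as covariate (limma, adjusted p = 0.370, 95% interval 0.04 to 0.56). The fitted 24 h wave of Awat1 peaked at 14.4 ± 1.37 h (SE) with an amplitude of 0.24 ± 0.07 log2, a fold of 1.39 (limma, adjusted p = 0.486).

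Awat2, the second wax ester synthase of the gland, went the same way. It was at 587 in ZT2, 729 in ZT6, 840.4 in ZT10, 1147 in ZT14, 779 in ZT18 and 904 in ZT22. It was then at 789 in ZT26, 812 in ZT30, 790.5 in ZT34, 834 in ZT38, 906 in ZT42, 709.7 in ZT46 and 661 in ZT50. ZT14 was again highest and ZT2 and ZT50 lowest, and light and dark pools overlapped. The fitted wave peaked at 14.6 ± 1.30 h with an amplitude of 0.21 ± 0.06 log2, a fold of 1.34 (limma, adjusted p = 0.478), and the dark pools were 0.25 ± 0.11 (log2, SE) higher (adjusted p = 0.381). Its slope was -0.02 ± 0.08 log2 per 24 h, against -0.19 ± 0.09 for Awat1 (SE, limma, adjusted p = 0.963 and 0.579), with intervals of -0.19 to 0.15 and -0.39 to 0.01. Leaving out ZT2 moved the slope to -0.12 for Awat2 and -0.32 for Awat1, whose slope otherwise lay between -0.24 and -0.14 with 1 pool left out.

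The size of these waves depended on ZT14 and ZT2 about equally. The amplitude of Awat1 was 0.170 without ZT14 and 0.166 without ZT2, and that of Awat2 0.146 and 0.161. The dark difference was 0.20 for Awat1 and 0.15 for Awat2 without ZT14, and 0.24 and 0.20 without ZT2. ZT38, the other pool taken at 14 h after lights on, did not repeat it: ZT14 exceeded ZT38 by a ratio of 1.56 for Awat1 and 1.37 for Awat2. At 14 h the mean of the pools was 2105 ± 660 (SD, n = 2) for Awat1, the highest of the 6 times of day, and at 2 h it was 1305 ± 172 (SD, n = 3), the lowest. From high to low the times of Awat1 ran 14, 10, 22, 6, 18 and 2 h, and of the 5 neighbours in that order only 18 and 2 h did not overlap in their pools. For Awat2 the order was 14, 18, 10, 22, 6 and 2 h, and all 5 neighbours overlapped. How often neighbours lie apart over all genes was not counted.

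Elovl4, the elongase of ultra long chains, was called by no test but had the smallest unadjusted p of the 9 for light against dark. It stood at 9867 in ZT2, 10466 in ZT6, 11009 in ZT10, 12643 in ZT14, 11358 in ZT18 and 11441 in ZT22, then at 9411 in ZT26, 9697 in ZT30, 10192 in ZT34, 10251 in ZT38, 10419.9 in ZT42, 10233 in ZT46 and 9540.1 in ZT50. The 3 dark pools of the first day were the 3 highest of all 13, and those of the second day lay inside the range of the light pools. The mean was 10026 ± 568.1 (SD, n = 7) in the light and 11058 ± 947 (SD, n = 6) in the dark, a difference of 0.17 ± 0.05 (log2, SE, limma, adjusted p = 0.324, 95% interval 0.07 to 0.28). The fitted wave had a fold of 1.18 and its top at 16.3 ± 1.11 h (limma, adjusted p = 0.442). Each time of day was higher on the first day than on the second, which held at all 6 times for 2.14% of all genes.

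Elovl7, which extends saturated chains, had the same 3 pools on top. It ranged from 3163.6 to 3491 with a median of 3378 in the light, and from 3229 through 3541 to 3939 in the dark, so the groups overlapped. ZT14, ZT22 and ZT18 were highest, at 3939, 3821 and 3683. The dark pools were 0.12 ± 0.05 (log2, SE) higher (limma, adjusted p = 0.370), and the wave peaked at 16.4 h with an amplitude of 0.08 ± 0.04 (adjusted p = 0.597).

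Elovl6, which makes stearate, went from its lowest pool to its highest within the first day. It was at 5435 in ZT2, 5878 in ZT6, 6469 in ZT10, 8026 in ZT14, 7236 in ZT18 and 6773 in ZT22. From ZT26 to ZT50 it stayed between 6221 and 6734. The first-day swing of 1.48 between ZT2 and ZT14 was thus not seen on the second day. The wave peaked at 16.1 h with an amplitude of 0.12 ± 0.04 (log2, SE), a fold of 1.19 (limma, adjusted p = 0.512), and the dark pools were 0.16 ± 0.06 higher (adjusted p = 0.362), or 0.10 higher without ZT14. In order the times ran 14, 18, 22, 10, 6 and 2 h, and 2 of the 5 neighbours did not overlap. Its highest and lowest times overlapped, with 14 h pools from 6255 to 8026 and 2 h pools from 5435 to 6342. The share of all genes with such neighbours was not counted.

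Elovl5, the elongase of polyunsaturated chains, lay between 5335 and 6118 with a median of 5853 in the light and between 5820.4 and 7042 with a median of 6071 in the dark. Its high pools were ZT14 at 7042 and ZT22 at 6768 and its low ones ZT30 and ZT26. The dark pools were 0.13 ± 0.06 (log2, SE) higher (limma, adjusted p = 0.377) and the wave had an amplitude of 0.09 ± 0.04 (adjusted p = 0.597). Dgat2, which closes the synthesis of triglycerides, lay between 3619.7 and 4713 in the light and 4094 and 4912 in the dark. Its difference between dark and light was 0.07 ± 0.07 (log2, SE, limma, adjusted p = 0.653) with a 95% interval of -0.07 to 0.21, and from 0.02 without ZT30 to 0.12 without ZT50 when 1 pool was left out. Its wave had an amplitude of 0.05 ± 0.05 (adjusted p = 0.885). ZT30 was the lowest pool of Dgat2, Elovl5 and Elovl1.

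All 9 genes had a fitted peak in the dark, from 14.4 h for Awat1 to 19.6 h for Elovl3, as did 54.2% of all genes tested. The peak hours of Elovl1 and Dgat2 are poorly determined, with SEs of 5.99 and 3.85 h at amplitudes of 0.02 and 0.05 log2. All 9 were fitted higher in the dark, as were 55.6% of all genes. Both fits use the same pools, so the second count is largely contained in the first. The median dark difference was 0.13 log2 over the 9 genes and 0.01 over all genes, and the median amplitude 0.11 against 0.06. Light and dark pools overlapped in all 9, and did not in 0.276% of all genes. ZT14 was the highest pool of 7 of the 9, and of 9.26% of all genes, and it lay above ZT38 in 9 of 9, where 53.8% of all genes did. ZT50 was lowest for Elovl3, Elovl7 and Awat1, and for 9.21% of all genes, and ZT2 for Elovl6 and Awat2, and for 8.62%. ZT14 was picked out after its values were seen.

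**Figure D2:**
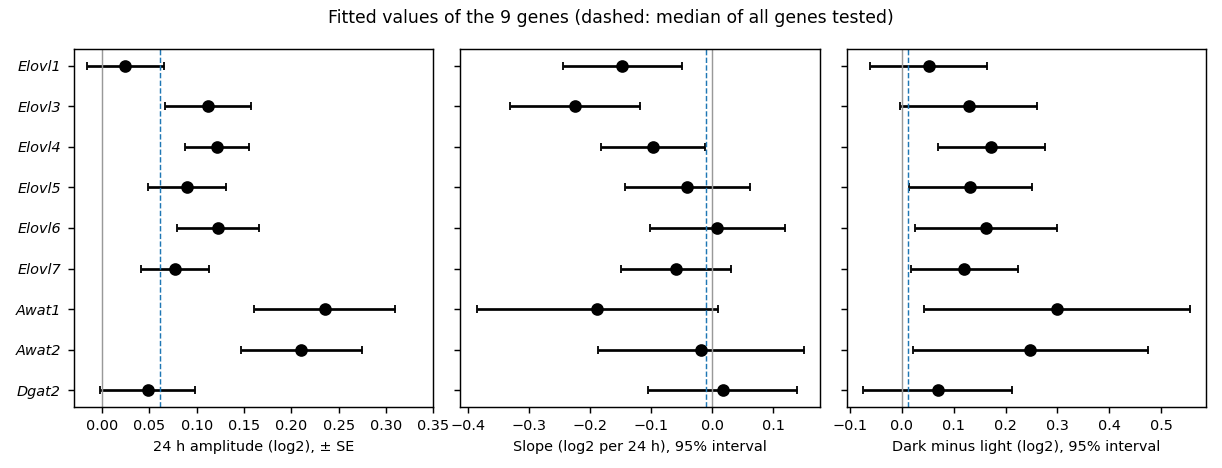
Fitted values of the 9 genes (y axis) in log2: the amplitude of the 24 h wave with its SE, the linear slope per 24 h and the dark minus light difference, both with 95% intervals, from the fits over 13 pools; the dashed line is the median of the 16322 genes tested. The slopes of Elovl1, Elovl3 and Elovl4 have intervals below 0, and all 9 dark differences lie above 0 as point values, while no gene passed the test over all genes.

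Elovl3 had the steepest fitted slope of the 9 genes over the 48 h. Elovl3, an elongase of the sebaceous gland and of brown fat, was at 4832 in ZT2, 4343 in ZT6, 4029 in ZT10, 3911 in ZT14, 4250.5 in ZT18 and 4524 in ZT22. On the second day it was at 3486 in ZT26, 3379.6 in ZT30, 3881 in ZT34, 3693 in ZT38, 3839.6 in ZT42 and 3888 in ZT46, and at 3159, its lowest, in ZT50. It was higher on the first day at each of the 6 times of day. The first 6 pools had a mean of 4315 ± 335 (SD, n = 6) and the next 6 a mean of 3694 ± 217 (SD, n = 6).

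The slope of Elovl3 was -0.22 ± 0.05 log2 per 24 h (SE, limma, adjusted p = 0.260, 95% interval -0.33 to -0.12). The smallest adjusted p of any gene for drift was 0.246. The slope ranged from -0.26 to -0.16 over the 27 other settings, the smallest in size being without ZT2 and ZT50, and the adjusted p from 0.111 to 0.999981. Skeletal muscle genes ran against it: all 16 had fitted slopes above 0, where 56.5% of all genes had slopes below 0. Their median slope was 0.27 log2 per 24 h. Their summed intensity ranged from 47582 to 96162 in the light pools and from 53535 to 96909 in the dark ones. With the muscle and adipocyte means as covariates the slope of Elovl3 was -0.20 ± 0.05 (SE, limma, adjusted p = 0.928), and with the sebaceous gland mean -0.22 ± 0.05 (adjusted p = 0.301). The fitted wave of Elovl3 had an amplitude of 0.11 ± 0.05 log2 (limma, adjusted p = 0.548). From high to low the means of its times ran 22, 18, 10, 6, 2 and 14 h. All neighbours overlapped, as did the highest and lowest times. The mean at 14 h, 3802 ± 154 (SD, n = 2), was close to that at 2 h, 3825 ± 887 (SD, n = 3).

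Elovl1, an elongase found in many tissues, was at 6472 in ZT2, 6100.3 in ZT6, 6018 in ZT10, 6437 in ZT14, 5245 in ZT18 and 6275 in ZT22, and from ZT26 on it lay between 5139.9 and 5559.8. On the first day 5 of 6 pools stood above all later ones, ZT18 being the exception. Its slope was -0.15 ± 0.05 log2 per 24 h (SE, limma, adjusted p = 0.372, 95% interval -0.25 to -0.05). The amplitude was 0.02 ± 0.04, with a peak at 17.8 ± 5.99 h (SE), and ran from 0.00558 without ZT30 to 0.0792 without ZT18 when 1 pool was left out. Elovl4 had a slope of -0.10 ± 0.04 (limma, adjusted p = 0.516) and Elovl7 one of -0.06 ± 0.04 (adjusted p = 0.702). Those of Elovl5, Elovl6 and Dgat2 lay between -0.04 and 0.02, with intervals that reach at most 0.14 to either side. Fitted slopes were below 0 in 7 of the 9 genes and in 56.5% of all genes, with medians of -0.06 and -0.01.

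The relations among the 9 genes were measured over the 13 log2 values of each pair, 36 pairs in all. Pearson's r was above 0 in 33 pairs, with a median of 0.56. After adjustment over the 36 pairs, 12 passed by Pearson's r, 7 by Spearman's rho and 6 by both. How often pairs of other genes pass was not counted, so these counts have no share over all genes beside them. The permutations treat the pools as interchangeable, although they follow each other in time. The closest pair was Awat1 and Awat2, with r = 0.88 (permutation p = 1.9e-04, adjusted p = 0.00312) and rho = 0.82 (permutation p = 8.9e-04, adjusted p = 0.0160). Without ZT14 and ZT50, the pools farthest from the median of Awat1, r was 0.74 (permutation p = 0.0103, adjusted p = 0.159). After removing linear time and the 24 h wave r was 0.90.

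Elovl4 and Awat1 had r = 0.85 and rho = 0.84, Elovl7 and Awat1 0.84 and 0.76, Elovl4 and Elovl7 0.83 and 0.74, and Elovl7 and Awat2 0.82 and 0.78 (adjusted permutation p between 0.00312 and 0.0299). Without the 2 pools farthest from the median, ZT14 and ZT22 in each case, r fell to 0.64, 0.62, 0.59 and 0.64 (adjusted permutation p from 0.169 to 0.171). Leaving out 2 extreme pools narrows the range and the number of pools by construction. Without ZT14 alone r was 0.73, 0.73, 0.72 and 0.70. Elovl4 and Awat2, the remaining pair of these 4 genes, had r = 0.72 (adjusted permutation p = 0.0192) and rho = 0.58 (0.125). Elovl4 and Elovl5 had r = 0.82, and Elovl6 had r = 0.77 with Awat2 and 0.75 with both Elovl4 and Elovl7, all passing by r and not by rho. Elovl1 and Elovl3 had r = 0.72 and rho = 0.71 (permutation p = 0.00565 and 0.00832, adjusted p = 0.0185 and 0.0428), and 0.72 without ZT2 and ZT14 (adjusted p = 0.159). After removing time and the wave their r was 0.39. Elovl5 and Dgat2 passed by r (0.78, permutation p = 0.00154, adjusted p = 0.00792) and not by rho (0.66, adjusted p = 0.0773). Without its 2 farthest pools no pair passed over the 11 left, the smallest adjusted permutation p being 0.0644, for Elovl1 and Awat1. Elovl3 and Awat2, both of the gland, had r = -0.09 (permutation p = 0.768, adjusted p = 0.789). The values of a pool share its tissue content, whose part in these relations was not tested.

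**Figure D3:**
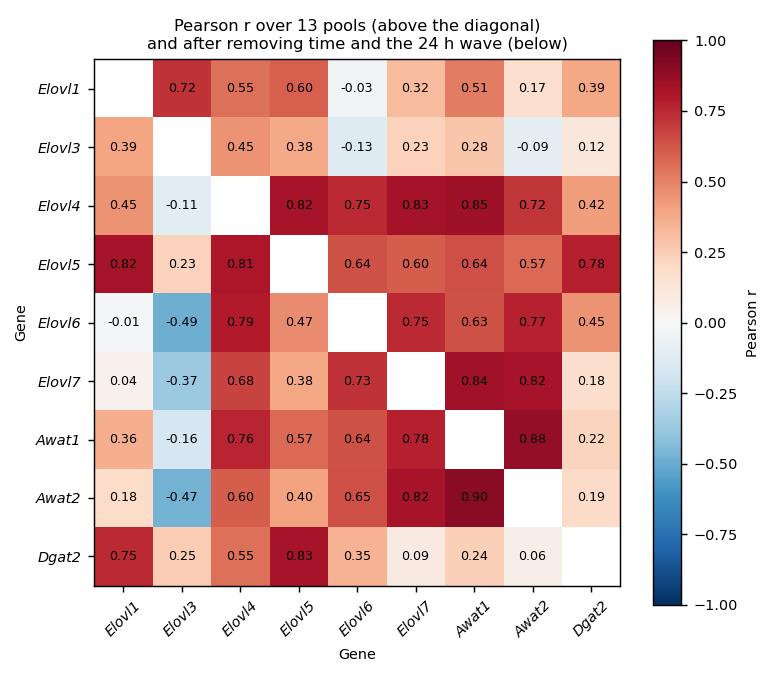
Pearson correlation of log2 intensity between the 9 genes over the 13 pools, above the diagonal as measured and below it after linear time and the 24 h wave were removed from each gene. The pairs among Elovl4, Elovl7, Awat1 and Awat2 lie between 0.72 and 0.88 above the diagonal, Elovl4 and Elovl5 reach 0.82, Elovl6 reaches 0.77 with Awat2, and Elovl3 has its only value above 0.5 with Elovl1.

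By Pearson's r over the 13 pools, among all tested genes that are not members, the gene most like Awat2 was Dgat2l6 (r = 0.93), a relative of Dgat2 and Awat1 in the acyltransferase family, which was also among the 3 for Awat1 (r = 0.94). Dgat2l6 is the coding gene next to Awat1 on the X chromosome in RefSeq's order. It stood at 780.2 in ZT2, 1564 in ZT10, 2109 in ZT14, 1350.2 in ZT18 and 1765 in ZT22, between 1222 and 1346 from ZT26 to ZT42, at 1147 in ZT46 and at 999.5 in ZT50. ZT14 was highest and ZT2 lowest, as in Awat2. Its wave peaked at 14.6 h, with 0.28 log2 as amplitude (limma, adjusted p = 0.509). Whether probes of these related genes detect each other's transcripts was not tested.

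The other genes most like Awat1 were Rnase2b (r = 0.96), a ribonuclease, and Serpinb6c (0.95), a serpin. For Awat2 they were Cers5 (0.93), a ceramide synthase, and Scd3 (0.90), a stearoyl-CoA desaturase of the sebaceous gland. Elovl7 was followed by Ces4a (0.92), Cyp2b23 (0.91) and Sdr16c6 (0.91), a carboxylesterase, a cytochrome P450 and a short-chain dehydrogenase, and Elovl4 by Pctp (0.92), a phosphatidylcholine carrier, Tmem119 (0.91) and Serpinb6c (0.91). Elovl6 was followed by Mmrn1 (0.96), Zfp72 (0.93) and Gpm6b (0.93). Elovl3 was followed by Zfp398 (0.93), Krt82 (0.90), a keratin of the hair cuticle, and Nrcam (0.89), and Elovl1 by Zfp385a (0.92), Lce1a1 (0.91), a late cornified envelope gene, and Rdm1 (0.89). Igfbp4 was among the 3 for both Elovl5 (0.88) and Dgat2 (0.87), beside Rarres1 (0.88) and Fam174b (0.88) for the former and Wfdc21 (0.89) and Zfp689 (0.87) for the latter. These are the top values over 13 pools among the tested genes not passed over, and are given as a description.

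**Figure D4:**
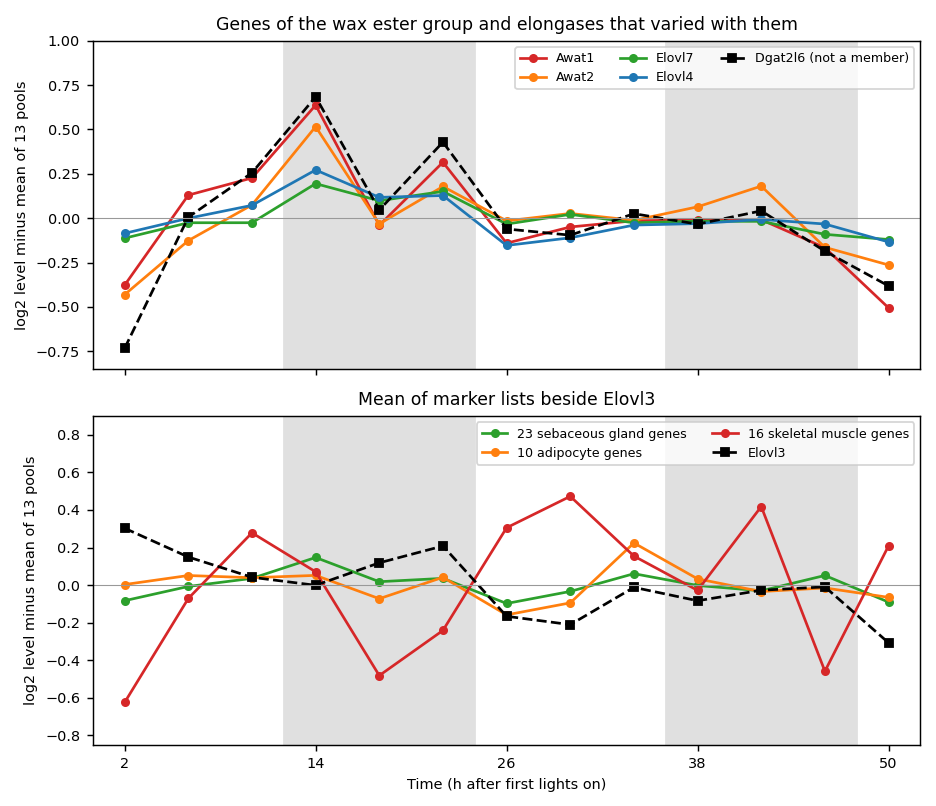
Log2 level minus the mean of the 13 pools against time in hours, dark periods in grey; the upper panel shows Awat1, Awat2, Elovl4, Elovl7 and Dgat2l6, and the lower panel the mean of 23 sebaceous gland genes, 10 adipocyte genes and 16 skeletal muscle genes beside Elovl3. The genes of the upper panel are highest at ZT14, and in the lower panel the muscle genes span 1.098 log2 while the sebaceous gland genes span 0.25.

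The list of other sebaceous gland genes held 24, 23 of them tested, and 0 were called in any comparison, with 4 at an unadjusted p under 0.05 for the wave, beside 9.54% of all genes. Their mean was highest in ZT14 (0.15 log2, centred) and lowest in ZT26 (-0.10), and 9 of the 23 were highest in ZT14, beside 9.26% of all genes. Genes of a list share the pools and their tissue content, so such counts, here and below, are not separate observations. The genes of the list differed in brightness, from Gal3st4 at 199 to 271, near the filter on dim probes, upwards. Scd1, the stearoyl-CoA desaturase, was between 11595 and 15172, Krt79, a keratin of the gland's duct, between 5701 and 7605, and Mc5r, a melanocortin receptor of sebocytes, between 2029.9 and 3032. Their summed intensity ranged from 69240.3 to 75457 in the light and from 71402 to 78218 in the dark. Gal3st4, a sulfotransferase, had the smallest p for the wave (limma, adjusted p = 0.482), Mgst1, a glutathione transferase, for drift (0.326) and Cyp2e1, a cytochrome P450 also abundant in liver, for the dark (0.384), its highest pool being ZT46. The slope of Mgst1 was above 0, at 0.12 log2 per 24 h. At an unadjusted p under 0.05 for drift, 2 genes of the list fell and 2 rose, beside 5.59% and 3.22% of all genes. In the list 15 of the 23 were fitted higher in the dark, beside 55.6% of all genes. The median dark difference was 0.04 log2, beside 0.13 over the 9 members and 0.01 over all genes. With the mean of the list as covariate the dark difference was 0.08 for Awat1, 0.10 for both Awat2 and Elovl4 and 0.07 for Elovl6, and the amplitude of Awat1 was 0.06. With the adipocyte and muscle means as covariates the dark difference was 0.46 for Awat1 (limma, adjusted p = 0.152) and 0.42 for Awat2 (0.0640), so these values depended on which tissue genes were adjusted for. The list shares Dgat2l6 and Far2 with the wax ester list. It also holds Scd3, and Dgat2l6 and Scd3 are among the genes most like Awat2 in these same pools, Dgat2l6 also for Awat1. This covariate is thus not independent of the members, and what the smaller values with it reflect was not tested.

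Of 11 genes of fatty acid synthesis, the step before elongation, 6 were highest in ZT14, beside 9.26% of all genes. The mean there was 0.32 log2 (centred), Thrsp included. In this list 0 were called and 9 were fitted higher in the dark, beside 55.6% of all genes. The median dark difference was 0.12 log2 beside 0.01 over all genes. Thrsp, a small protein of lipogenesis, had the smallest p, for the wave and for the dark. It was at 1665 in ZT14 and 1218 in ZT38, both above all other pools, and at 374 and 384 in ZT26 and ZT30. The dark pools of Thrsp were 1.02 log2 higher (limma, adjusted p = 0.186) and its wave peaked at 15.998 h with an amplitude of 0.69 (adjusted p = 0.206). Unlike the elongases it was thus high at 14 h on both days. Acss2, which makes acetyl-CoA from acetate, had a slope of -0.21 log2 per 24 h, the smallest p for drift in this list (limma, adjusted p = 0.378). Fatty acid synthase (Fasn), named after its values were seen, lay between 5458 and 8164, highest in ZT14.

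Of 8 partner enzymes of the elongation cycle listed, 6 were tested, 0 were called, and the median amplitude was 0.06 log2, the same as over all genes. Hacd2, a dehydratase of the cycle, had the smallest p for the wave and the dark, peaking at 16.8 h with an amplitude of 0.12 (limma, adjusted p = 0.423), but its highest pool was ZT42 at 8762. Hacd1, a dehydratase of muscle, had a slope of 0.23 (limma, adjusted p = 0.373), in the direction of the muscle genes. The remaining elongase, Elovl2, had a mean intensity of 107.7, under the filter on dim probes, and was not tested.

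Of 10 desaturases, which put double bonds into the chains, 0 were called and 5 were fitted higher in the dark, beside 55.6% of all genes. Scd4 had the smallest p for the wave and the dark, with a dark difference of 0.23 log2 (limma, adjusted p = 0.324), and Scd2 the smallest for drift, with a slope of 0.04 (adjusted p = 0.762). Of 11 tested genes of wax ester, triglyceride and sterol ester metabolism outside the group, 0 were called, 6 had an unadjusted p under 0.05 for the wave, beside 9.54% of all genes, and the median amplitude was 0.13 against 0.06 over all genes. Lpin1, a phosphatidate phosphatase, had the smallest p there, peaking at 10.9 h with an amplitude of 0.22, before that of the wax ester synthases (limma, adjusted p = 0.283). Cel, a lipase, had a dark difference of 0.25 (limma, adjusted p = 0.343) and Gpam, which starts triglyceride synthesis, a slope of -0.12 (adjusted p = 0.423). Far2, which makes the fatty alcohols that Awat1 and Awat2 use, lay between 4983.5 and 6963, highest in ZT14, and its wave peaked at 14.1 h with an amplitude of 0.13 (limma, adjusted p = 0.486). It was named after its values were seen.

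Of 15 tested acyl-CoA synthetases and fatty acid carriers, 0 were called and 12 were fitted higher in the dark, beside 55.6% of all genes. Slc27a1 had the smallest p for the wave, with an amplitude of 0.13 (limma, adjusted p = 0.507), Slc27a6 for drift, with a slope of -0.16 (adjusted p = 0.372), and Slc27a2 for the dark, with a difference of 0.46 (adjusted p = 0.381). The highest pool of Slc27a2 was ZT46, at 434 beside at most 239.7 elsewhere, the pool high in hepatocyte genes. Of 16 barrier ceramide genes, the users of ultra long chains in epidermis, 0 were called. In this list 14 had slopes below 0, beside 56.5% of all genes, and the median slope was -0.07, beside -0.01 over all genes. Alox12b, a lipoxygenase that acts on barrier ceramides, had the smallest p for drift and the dark, with a slope of -0.20 (limma, adjusted p = 0.385) and a difference of 0.21 (adjusted p = 0.357). Cers3, the ceramide synthase of ultra long chains, had the smallest for the wave, peaking at 4.08 h with an amplitude of 0.07 (limma, adjusted p = 0.540).

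Markers of other tissues are given beside these results. Adipocyte genes, 10 of 12 tested and 0 called, were highest in ZT34 (0.22 log2, centred) and lowest in ZT26 (-0.16), with summed intensities of 23914 to 29748 in the light and 25517 to 28961 in the dark. ZT30 and ZT26, the low pools of Elovl5, were low in these genes too, and ZT30 was the lowest of Dgat2. This was not particular to adipocyte genes. The fatty acid synthesis mean was -0.12 in ZT26 and -0.11 in ZT30, while the skeletal muscle mean was 0.31 and 0.47. Ucp1, the marker of brown fat, where Elovl3 is also expressed, was under the filter with a mean of 130.5. Epidermis genes, 9 of 10 tested and 0 called, were highest in ZT14 (0.17), and 6 of the 9 were highest in that pool, beside 9.26% of all genes. Their summed intensity was 62714 to 67066 in the light and 62580.3 to 72170.4 in the dark. Hair matrix and shaft genes, 15 of 16 tested and 0 called, were lowest in ZT14 (-0.12), with sums of 175599 to 186088 in the light and 165691 to 188929 in the dark. Of 16 muscle genes 0 were fitted higher in the dark and of 15 tested hepatocyte genes all 15 were, beside 55.6% of all genes. The hepatocyte genes vary together, so the 15 are not separate observations. Among the dark pools their mean was 2.17 in ZT46, 0.19 in ZT18 and 0.37 in ZT38. It was -0.21 in ZT14, -0.14 in ZT22 and -0.61 in ZT42. The hepatocyte sums were 5120 to 9811 in the light and 5144 to 40135 in the dark. No marker of these lists was listed at 0, and the part of tissue content in the results on the 9 genes was not tested beyond the covariates named above.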

How the data were processed

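RNA of whole back skin was measured on 13 Affymetrix arrays, 1 per pool. Each deposited column holds intensity per probe, taken as linear from its values. The submitters' processing notes name Affymetrix Expression Console 1.1.1 and PLIER 2.0 without a role, and the scaling and genome build are not given in the sources used here. Of 35557 probes, 21789 had 1 gene symbol in the platform annotation, 1621 several and 12147 none. RefSeq (GRCm38.p6) held 21698 of the single symbols and updated 0.

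Values were taken as log2(intensity + 16), so that folds of dim genes are understated. Probes with a mean under the 25th percentile (7.61 log2) were left out, and the probe of highest mean stood for a gene. In limma 3.58.1 (R 4.3.3), a 24 h cosine and sine with linear time were tested by the moderated F, linear time by its coefficient, and dark against light with linear time as covariate, all with Benjamini-Hochberg adjustment over 16322 genes at 0.05. The code was tested on simulated data. Correlations used 100000 permutations (Python 3.11.15, scipy 1.17.1), and figures matplotlib 3.10.9. The members and lists were chosen with earlier results of these data known. From each list the gene of the smallest p in a comparison was named unless genes were called. For each member the 3 genes of highest Pearson r were named, with the kinds of gene given above passed over. Genes named otherwise are marked or are markers of the gland, liver or brown fat chosen after their values were seen. Alternatives changed the scaling, pseudocount, filter, prior, covariates and time terms and left out pools.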

Additional observations from a re-analysis of the deposited data

Results flagged for a closer look

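Of 44 sets of pools checked for a pool standing apart, 2 met the Dixon criterion, and chance alone gives about 1 in 20. The mean of the wax ester, triglyceride and sterol ester genes outside the members had a gap of 0.646 of its range in the dark, with ZT14 highest at 0.25 log2 (centred). The hepatocyte marker mean had a gap of 0.646 of its range in the dark, with ZT46 highest at 2.17 log2.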

How the results depend on the processing

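No member was called under any of the 29 settings, and of 729 member values 705 kept direction and side of the threshold and 24 reversed. The reversals were in Elovl1, Elovl6, Awat2 and Dgat2, in values whose reported size was at most 0.07 log2, and the cause was not tested. For an amplitude, a reversal was counted where the peak hour moved far from that of the main fit. This held for Elovl1 at amplitudes of 0.0110 with median centring and 0.0353 with the sebaceous covariate. It also held at 0.0256 without linear time and 0.0222 with day as factor. For Dgat2 it held at 0.0583 with the sebaceous covariate. The amplitude of Dgat2 was 0.0178 to 0.0796 when 1 pool was left out. The slope of Elovl6 was -0.00252 with median centring, -0.0187 with adipocyte and muscle covariates, -0.0303 for day 2 against day 1, -0.0728 without ZT2 and ZT50, and -0.0502 to 0.0386 over pools left out. That of Awat2 was 0.00382 with the sebaceous covariate, 0.0468 without ZT14 and ZT46, and -0.117 to 0.0250 over pools left out. That of Dgat2 was -0.0510 for day 2 against day 1, -0.0247 without ZT2 and ZT50, and -0.0312 to 0.0446 over pools left out. The dark difference of Dgat2 was -0.0027 with the sebaceous covariate.

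The count of genes with a 24 h wave, 23, was 15 with no filter, 10 with the sebaceous covariate, 12 with adipocyte and muscle covariates, 9 with times of day as factor, 11 without ZT2 and ZT50, and 13 to 30 over pools left out. The light against dark count, 1, was 0 with quantile normalization, pseudocount 64, no filter, the trend and robust prior, adipocyte and muscle covariates, without ZT14 and ZT46, and without ZT2 and ZT50. It was 2 with the 50th percentile filter, the sebaceous covariate and no linear time, and 0 to 4 over pools left out. Leaving out both pools of a pair was chosen after seeing the data. Pools of the same time of day were paired across the 2 days in the fit of day 2 against day 1 by hour, where the difference of Elovl3 was -0.22 log2. Between light and dark, no paired analysis was run. The labels carry no replicate numbers that light and dark pools share, and pairing pools 12 h apart by their times was not tried.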
